A study of Homo sapiens with 9 samples.

Results

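Contacts between the captured promoters and the promoters of neighbouring protein-coding genes were taken from Capture-C data of HCT-116 cells, an established human colorectal carcinoma line. Members were chosen by position alone: a DpnII fragment belonged to a neighbouring promoter when its midpoint lay within 2.5 kb of the annotated transcription start site (TSS) of another protein-coding gene, at a distance of over 10 kb and at most 500 kb from the TSS of the captured gene (the viewpoint). Overlapping windows on one side were merged, which gave 158 promoter windows with 174 genes among 3767 windows and tiles of 5 kb over the same distances. The windows hold 1969 of the 101038 fragments around the 20 viewpoints. They surround 18 of the 20 viewpoints, since HS3ST1 and PCDH7 have no such neighbour, and 77 of them belong to KRT19 (50) and KRT80 (27), which lie in the keratin gene clusters.

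All libraries come from MED14-dTAG cells, in which the Mediator subunit MED14 carries a degradation tag, so that the control cells also carry the tag. Cells received DMSO (3 libraries) or dTAG ligand at 0.5 μM for 2 h (3 libraries). The remaining cells received the same dTAG treatment of 2 h combined with the BET inhibitor I-BET at 1 μM for 90 min (dTAG+I-BET, 3 libraries). Loss of the MED14 protein cannot be checked in DNA contacts. The methods describe independent biological replicates, but the column names carry letters that are not explained, and the p-values measure only the spread between these samples.

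Promoters of nearby genes can lie close to each other in the nucleus, either because they share enhancers or because they sit in the same domain that cohesin and CTCF form. Mediator is a large coactivator that links transcription factors at enhancers to RNA polymerase II at promoters, and BET proteins are readers of acetylated histones that are enriched at the same elements. Capture-C counts ligations between a captured fragment and other DpnII fragments. It measures proximity and does not tell whether a contacted promoter is active.

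The neighbouring genes include gene families of a few chromosomal clusters and genes listed as broadly expressed. That list was written without expression data, and its genes were not checked in these cells. From a list of gene groups, 7 windows were type I interferon genes near MTAP, 14 were type I keratins and 25 were keratin-associated proteins near KRT19, and 18 were type II keratins near KRT80. A further 6 windows held CXC chemokines and 3 held EGF-family ligands near EREG, 7 held defensins near ANGPT2, 20 held genes listed as broadly expressed, 5 held a mixed group of signalling and adhesion genes and a POU factor (FGF1, RNF14, IRAK3, ITGA4 and POU5F1B), and 2 each held olfactory receptors near DCBLD2 and the cell cycle inhibitors CDKN2A and CDKN2B near MTAP.

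The promoters below are those with the called changes described later (IFNE, IFNA1 and KRTAP4-5), that of IFNA5, whose change lay next to the threshold, and that of SLC45A1, which had the highest ratio to its control window. They were taken from RefSeq (GRCh38.p14) as 250 bases before to 50 bases after the start, printed 5′ to 3′ on the gene's strand. Capitals mark the letters TATAAA, which TATA boxes can hold, and the DpnII site GATC, searched on both strands with no overlap between the hits; the IFNA1 stretch holds neither, and the TATAAA of IFNE lies after the start, not before it, where a TATA box would be.
IFNE, chr9:21482264-21482563, minus strand: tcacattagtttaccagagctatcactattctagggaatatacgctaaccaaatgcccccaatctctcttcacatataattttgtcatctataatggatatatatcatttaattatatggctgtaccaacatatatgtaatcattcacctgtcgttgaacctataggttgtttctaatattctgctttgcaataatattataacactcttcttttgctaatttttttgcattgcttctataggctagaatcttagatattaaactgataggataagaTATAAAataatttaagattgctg
IFNA1, chr9:21440189-21440488, plus strand: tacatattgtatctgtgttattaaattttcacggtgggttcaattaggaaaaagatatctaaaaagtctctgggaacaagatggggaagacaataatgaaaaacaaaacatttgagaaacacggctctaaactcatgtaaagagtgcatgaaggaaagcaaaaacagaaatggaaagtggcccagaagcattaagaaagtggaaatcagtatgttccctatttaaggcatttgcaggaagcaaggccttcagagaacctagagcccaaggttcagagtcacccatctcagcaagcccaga
IFNA5, chr9:21305264-21305563, minus strand: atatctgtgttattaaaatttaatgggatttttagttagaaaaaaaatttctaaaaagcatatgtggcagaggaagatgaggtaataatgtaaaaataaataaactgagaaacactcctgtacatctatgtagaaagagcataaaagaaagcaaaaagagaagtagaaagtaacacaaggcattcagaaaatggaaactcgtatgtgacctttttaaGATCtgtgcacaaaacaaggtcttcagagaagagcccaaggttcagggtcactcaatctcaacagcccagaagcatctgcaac
KRTAP4-5, chr17:41149776-41150075, minus strand: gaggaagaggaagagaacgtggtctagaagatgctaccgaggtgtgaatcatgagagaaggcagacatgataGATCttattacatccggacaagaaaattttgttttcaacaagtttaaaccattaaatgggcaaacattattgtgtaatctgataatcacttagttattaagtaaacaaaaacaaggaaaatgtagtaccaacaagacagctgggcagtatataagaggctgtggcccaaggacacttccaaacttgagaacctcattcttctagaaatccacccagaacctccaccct
SLC45A1, chr1:8317864-8318163, plus strand: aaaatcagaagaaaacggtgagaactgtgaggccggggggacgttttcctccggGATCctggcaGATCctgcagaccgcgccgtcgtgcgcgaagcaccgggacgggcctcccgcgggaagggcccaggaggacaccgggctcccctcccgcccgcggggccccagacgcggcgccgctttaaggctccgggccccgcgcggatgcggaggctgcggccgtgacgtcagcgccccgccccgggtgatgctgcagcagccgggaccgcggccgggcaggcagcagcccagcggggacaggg

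RefSeq held 155 promoters with the symbols of these 174 genes. TATAAA was present in 49 of these (31.6%) against 11.5% of all 35116 promoters of that length, at any position in the stretch. GATC was present in 48.4% against 41.7%. No filter by gene type was applied to the larger set, whereas the members are protein-coding. These are matches of letters and not sites of binding. Members of gene families also share sequence. A median of 0.263% of the 50-base words of a window occurred again within 600 kb of the viewpoint, and over 10% did so in 18 windows. Among these were IFNA1 (10.5%), IFNA13 (10.7%), KRT6A (16.2%), KRTAP4-11 (19.5%), KRT6B (26.4%), KRT6C (29.5%), KRTAP9-8 (36.6%) and the neutrophil defensin DEFA1 (95.3%). Reads from these windows may be shared between copies. The shares were 0.0202% for IFNE and 3.92% for KRTAP4-5.

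Interactions behind the deposited values could be recovered as whole numbers, and a library held 484419 to 857998 of them within the viewpoints' chromosomes. dTAG replicate 3 stood apart, with 173609 interactions from 10 to 500 kb against 231719 to 393340 in the other libraries. A promoter window held a median of 31.8 interactions per library (4.56 to 282), and 139 windows passed the filter of 10 for tests. The 19 that did not pass lay near KRT19 (10), ANGPT2 (6), EREG (2) and KRT80 (1).

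Contacts with neighbouring promoters in DMSO ranged from 33.0 to 2299 signal per kb and followed distance. From 10 to 50 kb the 7 windows had a median of 1106 per kb, from 50 to 100 kb the 16 windows had 677, from 100 to 200 kb the 23 windows had 416, and beyond 200 kb the 112 windows had 217. Tiles without a promoter had medians of 1287, 628, 409 and 182 per kb over the same bands. The plot of DMSO signal against distance shows both, with the windows scattered on either side of the tiles.

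**Figure D1:**
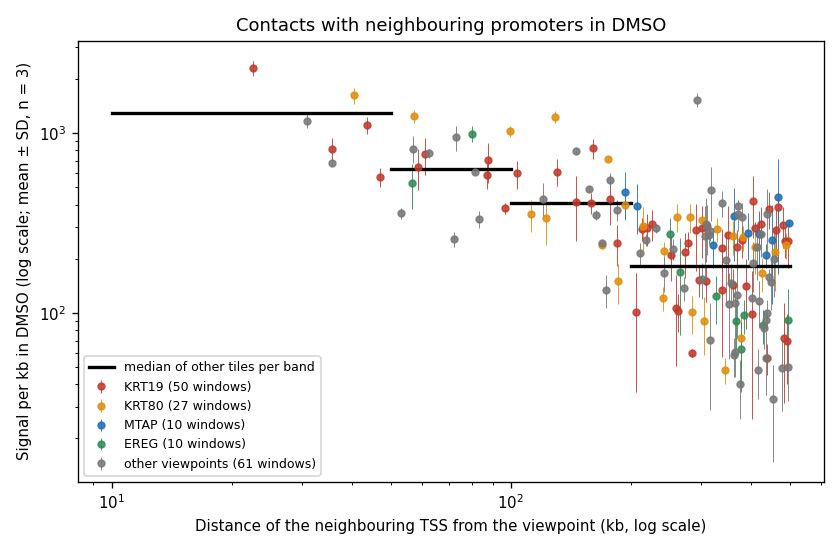
Signal per kb in DMSO (mean ± SD, n = 3) of the 158 promoter windows against the distance of the neighbouring TSS, on log axes, with black lines for the median of the other tiles in each distance band. The windows fall with distance as the tiles do, and SLC45A1, seen from ERRFI1 at 292 kb, lies at 1537 per kb, far above the tile median of 182.

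The strongest contact of all windows joined KRT19, a keratin of simple epithelia, with KRT13, a keratin of stratified epithelia, 22.6 kb away. The KRT13 window had 2492, 2362 and 2044 per kb in the 3 DMSO libraries. Next was KRT7, another keratin of simple epithelia, 40.5 kb upstream of KRT80, with 1799, 1490 and 1572 per kb. SLC45A1, a sugar transporter gene, had 1425, 1687 and 1500 per kb although it lies 292 kb from ERRFI1, a feedback inhibitor of EGF receptor signaling. The values of these 3 windows separate SLC45A1 and KRT7 from KRT13, but SLC45A1 and KRT7 overlap each other.

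At the other viewpoints the strongest neighbour had less signal. GLIPR1 had 1168 ± 105 per kb (SD, n = 3) from KRR1, and AREG, which encodes the EGF receptor ligand amphiregulin, had 992 ± 99.2 from EREG, the gene of the related ligand epiregulin. ACSL5, an enzyme that activates fatty acids, had 947 ± 150 from VTI1A, the window of ANAPC16 and ASCC1 had 819 ± 142 from DDIT4, AGPAT5 had 799 ± 25.2 from ANGPT2, PPP1R1C had 771 ± 41.1 from ITPRID2, and RHBDD1 had 684 ± 21.4 from IRS1. The rest of these strongest neighbours lay lower. They were BBS10 from PHLDA1 (483 ± 161), CDKN2A from MTAP (469 ± 137), NSMCE2 and WASHC5 from TRIB1 (408 ± 65.2), FGF1 from SPRY4 (391 ± 34.9), GPR15 from DCBLD2 (355 ± 69.0), CEP290 and TMTC3 from KITLG (353 ± 134), LLPH from HMGA2 (267 ± 124), and POU5F1B from MYC (233 ± 80.3).

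To compare each promoter with sequence at the same distance, a window of the same size was placed equally far on the viewpoint's opposite side (the mirror). In DMSO, 60 of 144 windows with enough interactions were above their mirror (41.7%) and 47 were below it (32.6%; limma, adjusted p under 0.05). Over windows and tile pairs together 75% differed between the sides, and over tile pairs without promoters 75.1%, so that a difference between the sides was as common without a promoter. The median ratio of windows to mirrors was log2 0.18. In 33 cases the mirror itself held a promoter.

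SLC45A1 had the highest ratio, with 1537 ± 135 per kb against 87.0 ± 8.7 at its mirror (log2 4.13, SE 0.18, adjusted p = 6.21e-07). UTS2, the gene of the peptide urotensin 2, lies 173 kb from ERRFI1 on the other side and had the lowest, with 134 ± 28.5 against 1509 ± 155 (log2 −3.50, SE 0.20, adjusted p = 2.36e-06). These extremes therefore belong to the same viewpoint, whose upstream side carried the signal. The other high ratios were those of KRT72 (3.71), KRT74 (3.45) and KRT2 (2.92) seen from KRT80 and KRTAP4-12 (3.03) seen from KRT19. The other low ratios were those of CNP (−2.62) and HAP1 (−2.40) seen from KRT19, CXCL2 (−2.46) seen from EREG, and the shared window of the collagen genes COL4A3 and COL4A4 (−2.23) seen from IRS1; CNP and HAP1 had too few interactions for the tests of treatment.

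The keratin clusters also differed between the sides. All 18 windows upstream of KRT80 were type II keratins, all 18 had more signal than their mirror, and 17 passed the test, with a median of log2 1.63. Signal was 1620 per kb at KRT7 and 237.5 per kb at KRT1, 488 kb away. All 9 windows downstream of KRT80, which hold genes such as ACVRL1, ACVR1B and NR4A1, were below their mirror (median log2 −1.60). Of these, 8 passed the filter on their own interactions. The tiles without promoters on the keratin side had a median of 338 per kb beside 316 for the windows, and those on the other side 119 beside 121.

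From KRT19, the windows downstream included hair keratins and keratin-associated proteins, and 19 of 32 tested were above and 4 below their mirror. The keratin-associated proteins, which crosslink keratin filaments in hair, had a median of log2 1.76 over their mirror (19 of 22 above, none below), while the type I keratins, which lie on both sides nearer to KRT19, had −0.12 (0 of 14 above, 5 below). Tiles without promoters over the stretch of the keratin-associated proteins had a median of 267 per kb, beside 269 for those windows. Over the stretch of the type I keratins the tiles had 494, beside 603. On the upstream side 1 of 12 windows was above its mirror, and 6 were below. Only 7 of the 15 windows on that side passed the filter on their own interactions. EIF1, a translation initiation factor used by most cells, 161 kb upstream, had 821 per kb. The tile median at 100 to 200 kb over all viewpoints was 409. Over the whole stretch of the windows upstream of KRT19, the 63 tiles had a median of 116.

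**Figure D2:**
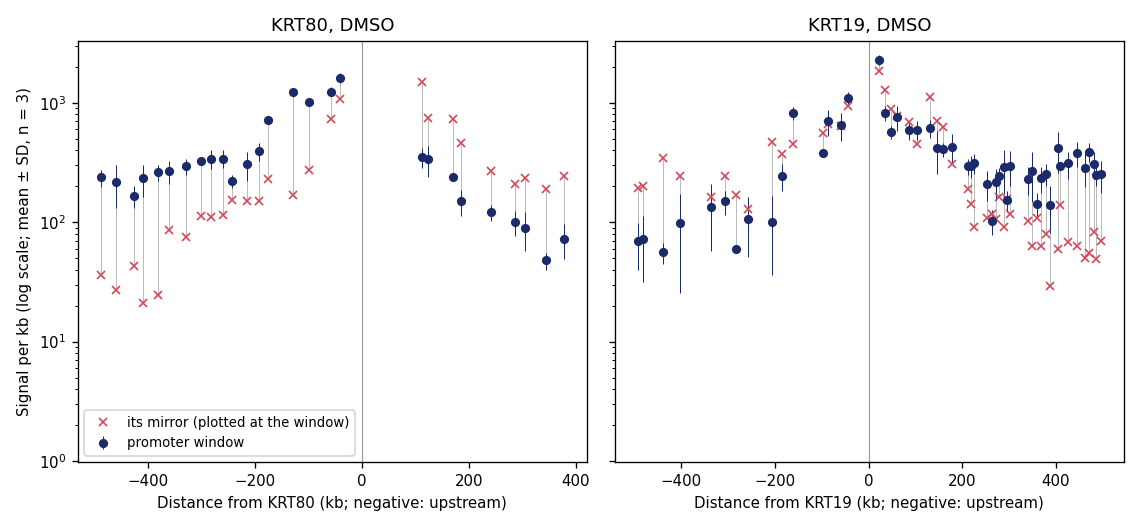
DMSO signal per kb (log scale) of the windows of KRT80 and KRT19 (circles, mean ± SD, n = 3) and of the mirror of each (crosses, mean), against distance from the viewpoint. All circles upstream of KRT80 lie above their crosses and all circles downstream lie below them.

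Around EREG, AREG had the most signal of the EGF-family promoters and BTC, the farthest, had the least. AREG, 80.0 kb downstream, was above its mirror (log2 1.01, SE 0.15, adjusted p = 0.000124). EPGN, the gene of epigen, lies 57 kb upstream and had 526 ± 149 per kb. BTC, the gene of betacellulin, lies 429 kb downstream and had 85.7 ± 18.4. The 6 CXC chemokine windows had 62.5 to 169 per kb, and 4 were below their mirror and none above. Only 4 of the 6 windows passed the filter on their own interactions, so that the others were tested through their mirrors.

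A window was also compared with its own flanks, 5 to 15 kb from the TSS. Here 13 of 136 windows were above the flanks (9.56%) and 12 were below (8.82%), beside 11.1% and 13.4% of 3367 tiles without a promoter. The median ratio was log2 0.03 for windows and −0.04 for tiles. Windows above their flanks included GLIPR1L1 seen from KRR1 (log2 1.04, SE 0.14), VAMP3, a vesicle fusion protein, seen from ERRFI1 (0.86, SE 0.18), EIF1 seen from KRT19 (0.70, SE 0.17), and SLC45A1 (0.58, SE 0.11). Windows below their flanks included BTC (−1.60, SE 0.14) and EPGN (−0.86, SE 0.15), NAP1L1, a histone chaperone, seen from PHLDA1 (−0.73, SE 0.11), and IFNE seen from MTAP (−0.77, SE 0.16).

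The first treatment comparison asked how loss of MED14 changed these contacts. Over all 158 windows the median change with dTAG was log2 0.00 (79 windows lower and 79 higher), beside −0.08 over the 3609 tiles, of which 59.7% were lower. dTAG replicate 3 lay at −0.28 relative to the DMSO mean over the tiles, where the other libraries lay between −0.06 and 0.06, and the median of the windows was 0.061 without it. At single windows, 2 interferon promoters near MTAP rose and 1 keratin-associated protein promoter near KRT19 fell, 3 of 139 tested windows, where 1.03% of all 3480 tested windows and tiles were called (0.948% higher and 0.0862% lower; 1.44% by edgeR). The count was 0 without DMSO replicate 2 or dTAG replicate 1, 1 without DMSO replicate 1, and 5 without DMSO replicate 3. The groups did not overlap in 11 windows that were lower and 12 that were higher with dTAG, 14.6% of all 158 windows. The share was 14.9% of the 3609 tiles, tested or not. Of the 3480 windows and tiles tested it was 15.1% (9.71% lower and 5.43% higher).

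**Figure D3:**
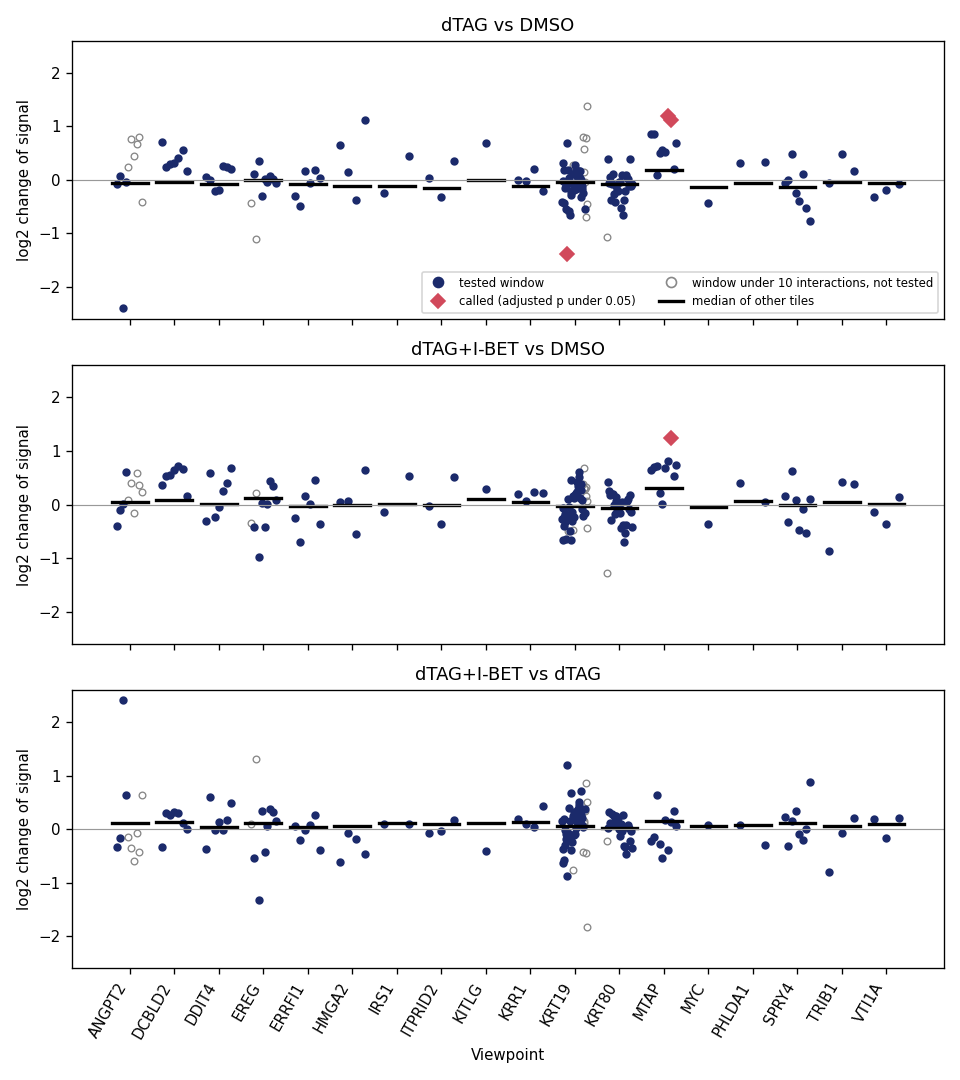
Log2 change of signal for each promoter window by viewpoint in the 3 comparisons, with diamonds for called windows, open circles for windows under 10 interactions, and black lines for the median of the other tiles of the viewpoint. The called windows belong to MTAP and KRT19, and no window was called between dTAG+I-BET and dTAG.

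IFNE encodes interferon epsilon, a type I interferon of epithelia, and lies 320 kb upstream of MTAP, the gene of an enzyme of methionine salvage. Its window (chr9:21479813-21484813) had 207, 200 and 305 per kb in DMSO, 571, 490 and 463 with dTAG, and 647, 483 and 541 with dTAG+I-BET. All 3 dTAG and all 3 dTAG+I-BET libraries were above all 3 DMSO libraries. The mean went from 237 ± 58.7 to 508 ± 56.6 with dTAG (log2 1.12, SE 0.21, limma adjusted p = 0.00807) and to 557 ± 83.4 with dTAG+I-BET (log2 1.24, SE 0.21, adjusted p = 0.00203). The call with dTAG was lost without DMSO replicate 1 (adjusted p = 0.0599), DMSO replicate 2 (0.0663) or dTAG replicate 1 (0.0568), and in a window of 1.5 kb on each side (log2 0.76, adjusted p = 0.324). The call with dTAG+I-BET was kept in every alternative run of the window fit. Relative to mirrors or flanks, no window was called in the main run of that comparison.

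IFNA1, one of the interferon alpha genes, lies 362 kb upstream of MTAP. Its window (chr9:21437939-21442939) had 510, 217 and 305 per kb in DMSO, 757, 602 and 897 with dTAG, and 608, 565 and 527 with dTAG+I-BET. All DMSO libraries lay below those of both treatments. The change with dTAG was log2 1.20 (SE 0.25, adjusted p = 0.0146), which was lost without DMSO replicate 2 (0.135) or dTAG replicate 1 (0.0568) and with only the 2 groups in the fit (0.0736). With dTAG+I-BET it was 0.81 (SE 0.25, adjusted p = 0.096).

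IFNA5 lies 497 kb upstream, at the end of the range, and had 319, 304 and 328 per kb in DMSO, 509, 666 and 561 with dTAG, and 621, 538 and 361 with dTAG+I-BET. The change with dTAG did not pass (log2 0.86, SE 0.21, adjusted p = 0.0535), although edgeR on the recovered interactions called it (adjusted p = 0.0486). All 7 interferon windows had values above 0 for the change with dTAG (0.08 to 1.20, median 0.55), and 4 of them did not overlap with DMSO. IFNA8, IFNA2, IFNA13 and IFNA6 had changes of 0.52, 0.55, 0.50 and 0.08. KLHL9, an adaptor of a ubiquitin ligase and the window between these genes that is no interferon, had 287, 278 and 762 per kb in DMSO and 642 to 757 with dTAG, so that DMSO replicate 3 reached the treated range.

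**Figure D4:**
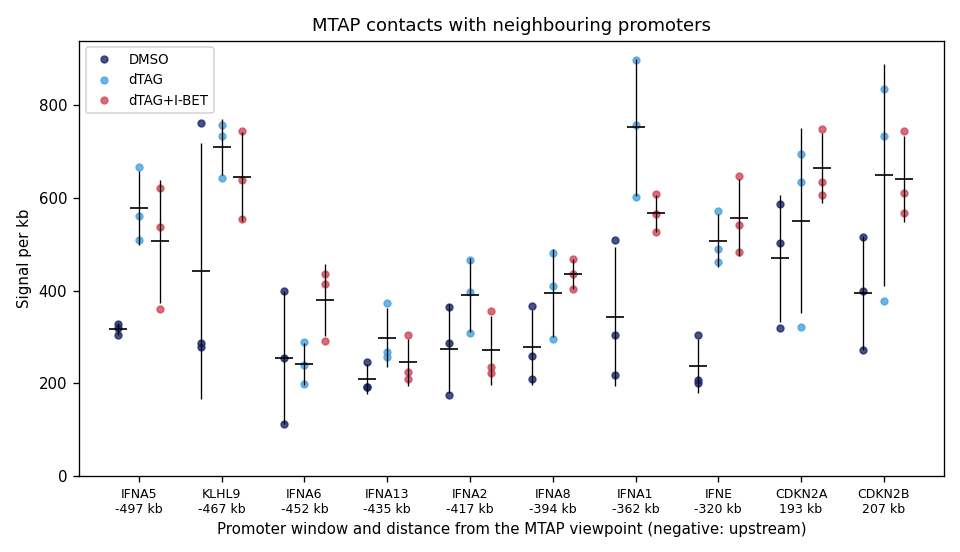
Signal per kb of the 10 promoter windows around MTAP in each library (points), with the mean and SD of each group (n = 3) in black, ordered by distance from MTAP. At IFNE, IFNA1 and IFNA5 all dTAG libraries lie above all DMSO libraries.

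The sequence around the interferon promoters changed with them. The 22 tiles without a promoter over the same stretch upstream of MTAP had a median change of log2 0.65 with dTAG, beside 0.70 for the 8 promoter windows there, and 0.72 with dTAG+I-BET, beside 0.70. Relative to its flanks the IFNE window changed by 0.59 (SE 0.22, adjusted p = 0.96) and the IFNA1 window by 0.54 (SE 0.26, adjusted p = 0.96). Relative to its mirror, the IFNE window changed by 0.97 (adjusted p = 0.12) and the IFNA1 window by 1.31 (adjusted p = 0.161). Over all 176 tiles of MTAP the median change was 0.19.

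The promoters on the other side of MTAP, CDKN2A and CDKN2B, encode inhibitors of the kinases that drive cell division. CDKN2B had 271, 399 and 516 per kb in DMSO, 733, 835 and 378 with dTAG, and 568, 745 and 610 with dTAG+I-BET. One dTAG library, replicate 3, overlapped with DMSO, whereas all dTAG+I-BET libraries lay above it (log2 0.74, SE 0.27, adjusted p = 0.184). CDKN2A changed by 0.20 (SE 0.26) with dTAG and by 0.54 (SE 0.26, adjusted p = 0.368) with dTAG+I-BET. Neither passed.

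KRTAP4-5, a gene for a hair keratin-associated protein 378 kb downstream of KRT19, was the 1 window called lower with dTAG. Its window (chr17:41147325-41152325) had 254, 308 and 202 per kb in DMSO, 83.1, 147 and 69.3 with dTAG, and 261, 308 and 129 with dTAG+I-BET. Every dTAG library was lower than every DMSO library, and the dTAG+I-BET libraries overlapped with both. The fall was log2 −1.40 (SE 0.33, adjusted p = 0.043) on a mean of 14.2 interactions per library, with 5, 14 and 4 in the dTAG libraries. It was called by neither edgeR (adjusted p = 0.114) nor the fit of only the 2 groups (0.0672), and it was lost without any 1 of DMSO replicate 1 (0.16), DMSO replicate 2 (0.234), dTAG replicate 1 (0.147), dTAG replicate 3 (0.111), dTAG+I-BET replicate 1 (0.0643) or dTAG+I-BET replicate 2 (0.0556). In windows of 5 kb on each side it merged with KRTAP4-6, its neighbour, which had 0.69 (SE 0.37) on its own, and the merged window changed by −0.19.

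Other windows whose groups did not overlap with dTAG had smaller changes that did not pass. ARHGAP26, seen from SPRY4, had 177, 155 and 145 per kb in DMSO and 123, 84.1 and 76.2 with dTAG (log2 −0.77, SE 0.28, adjusted p = 0.265). KRT6B and KRT82 seen from KRT80 had −0.65 (SE 0.25) and −0.54 (SE 0.24), and KRTAP4-11 seen from KRT19 had −0.55 (SE 0.24). On the higher side, OR5K1, an olfactory receptor gene seen from DCBLD2, had 120, 84.0 and 95.0 per kb in DMSO and 144, 173 and 167 with dTAG (log2 0.70, SE 0.30, adjusted p = 0.37). XKR5, seen from ANGPT2, had the lowest value of any window, −2.40 (SE 1.09, adjusted p = 0.403), where dTAG replicate 3 held 0 of its interactions while the other dTAG libraries held 13 and 38.

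Most other gene groups held no called window with dTAG. The type II keratins had a median of −0.11 (13 of 18 lower) where the tiles around them had −0.14, and the keratin-associated proteins −0.13 (17 of 25 lower) where the tiles had −0.29. The type I keratins had 0.00 beside −0.05, the EGF-family ligands 0.02 beside 0.06, and the CXC chemokines −0.15 beside 0.03. AREG had 1049, 1049 and 877 per kb in DMSO and 1047, 1182 and 811 with dTAG, which overlap fully. The genes listed as broadly expressed, which include KLHL9 near MTAP, had 0.18 (15 of 20 higher) beside 0.00, and the defensins 0.44 (5 of 7 higher) beside 0.11, although only 1 of 7 defensin windows had enough interactions to be tested. The olfactory receptors had 0.47 beside 0.16, and the mixed group of FGF1, RNF14, IRAK3, ITGA4 and POU5F1B −0.37 beside −0.24. Of these groups, the keratin-associated proteins held the called window KRTAP4-5 and the others held none.

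By viewpoint, the median change of the windows with dTAG was highest at KITLG (0.69, 1 window), MTAP (0.62, 10 windows), HMGA2 (0.40, 4 windows), and DCBLD2 and PHLDA1 (both 0.32, with 7 and 2 windows). It was lowest at MYC (−0.43, 1 window), VTI1A (−0.19, 3 windows) and SPRY4 (−0.15, 8 windows). The tiles of the same stretch had medians of 0.33 at KITLG (2 tiles), 0.61 at MTAP (24), 0.25 at HMGA2 (31) and −0.07 at PHLDA1 (52). They had −0.51 at MYC (2 tiles), −0.15 at VTI1A (29) and −0.16 at SPRY4 (52). All 7 windows of DCBLD2 were higher, where the tiles of the same stretch had a median of 0.07. That stretch also covers the gap between ST3GAL6 at 169 kb and CPOX at 308 kb. Relative to their flanks the DCBLD2 windows had a median change of 0.13. At KITLG the window of CEP290, a protein of centrosomes and cilia, and TMTC3 had 275, 277 and 508 per kb in DMSO and 516, 505 and 621 with dTAG, so that the groups met at DMSO replicate 3.

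The mirrored windows were then taken off each change. Relative to the mirror, no window was called with dTAG (limma, 144 windows), where 0.729% of windows and tile pairs were called. At an unadjusted p under 0.05, 5 windows were lower and 18 higher, and 16.8% of all windows and tile pairs passed. The median was log2 0.01. Tile pairs without promoters shifted by 0.23 towards the downstream side with dTAG, 0.25, 0.22 and 0.25 in the 3 libraries. The 80 windows downstream had a median of 0.18 (49 above 0), near this shift. The 78 windows upstream had −0.03 (32 above 0), much smaller than a shift of that size. A change relative to the mirror can thus carry this shift between the sides. Relative to their flanks, no window was called in any of the 3 comparisons (0% of windows and tiles; limma, 136 windows), and 6 or fewer passed an unadjusted p under 0.05 in each.

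With dTAG+I-BET against DMSO, a comparison that shares the DMSO libraries with the first, IFNE was the 1 window called, where 2.56% of all windows and tiles were called (2.04% higher and 0.517% lower; 3.22% by edgeR). Without dTAG replicate 3, which enters this comparison through the shared estimate of the spread, 10 windows were called (9 higher and 1 lower). There were 3 without DMSO replicate 3, 2 without DMSO replicate 1, and 3 after rescaling to equal totals. The median change over all windows was log2 0.08 beside 0.03 over tiles. The groups did not overlap in 11 windows that were lower and 22 that were higher, 20.9% of all 158 windows. The share was 21.9% of the 3609 tiles, and 23% of the windows and tiles tested (9.31% lower and 13.7% higher). At an unadjusted p under 0.05 (limma), 9 windows were lower and 19 higher, where 13.9% of all windows and tiles tested passed.

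The windows closest to a call after IFNE were IFNA1 and KRT35, a hair keratin 47 kb from KRT19. KRT35 had 492, 626 and 590 per kb in DMSO, 698, 694 and 520 with dTAG, and 920, 771 and 918 with dTAG+I-BET. Its dTAG+I-BET libraries lay above all others (log2 0.61 against DMSO, adjusted p = 0.096). All 14 type I keratin windows had values above 0 (0.08 to 0.61, median 0.27, with 4 that did not overlap), while the tiles around them had 0.11, and 20 of 25 keratin-associated protein windows further out had values below 0 (median −0.23), while the tiles around them had −0.44. KRTAP9-8 (−0.67, SE 0.28) and KRTAP4-11 (−0.64, SE 0.24) were the lowest of these without overlap.

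From KRT80, the epidermal keratins KRT6C (−0.69, SE 0.22) and KRT6A (−0.54, SE 0.21) did not overlap with DMSO and did not pass. FGF1, a fibroblast growth factor seen from SPRY4, had 424, 354 and 394 per kb in DMSO, 302, 219 and 296 with dTAG, and 313, 243 and 260 with dTAG+I-BET, both treatments below DMSO in every library (−0.53, SE 0.21 in each comparison). The EGF-family windows had a median of 0.34 beside 0.19 in the tiles. AREG had 1315, 1246 and 1196 per kb with dTAG+I-BET, above every DMSO and dTAG library (log2 0.34 against DMSO, SE 0.18, adjusted p = 0.414). At DCBLD2 all 7 windows were again higher (median 0.56, tiles of the same stretch 0.30). Relative to their flanks the median was 0.18. The change was 0.72 (SE 0.23) at a gene record without a symbol, which edgeR called (adjusted p = 0.046), and 0.64 (SE 0.21) at GPR15. IFNA8 had 0.69 (SE 0.24).

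Relative to the mirror no window was called with dTAG+I-BET against DMSO by limma, where 1.23% of windows and tile pairs were called. At an unadjusted p under 0.05, 5 windows were lower and 15 higher, and 17.7% of all windows and tile pairs passed. The median was 0.15, with −0.01 for the windows upstream and 0.28 for those downstream, and 0.20 for tile pairs.

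A further comparison, between dTAG+I-BET and dTAG, asked what BET inhibition added to the loss of MED14. No window was called by limma (0% of all windows and tiles; lowest adjusted p = 0.725; 6 windows lower and 9 higher at an unadjusted p under 0.05, passed by 6.47% of all), and edgeR called none. The median change was log2 0.08 beside 0.09 over tiles. For the windows it was 0.0076 without dTAG replicate 3, 0.0016 after rescaling to equal totals and −0.029 after centring by distance, so that its direction depends on the scaling. The groups did not overlap in 7 windows that were lower and 15 that were higher, 13.9%, against 12.8% of all (2.9% lower and 9.86% higher). The median SE of a window's change was 0.25 on the log2 scale.

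SLC45A1, the window with the highest ratio to its mirror, had 1574, 1659 and 1454 per kb with dTAG, like DMSO, and 1121, 1230 and 1220 with dTAG+I-BET, below every other library. The change against dTAG was log2 −0.39 (SE 0.16, adjusted p = 0.725), and relative to its mirror it was 0.43 (adjusted p = 0.789). The chemokine gene CXCL5, seen from EREG, had the largest decrease without overlap, from 104, 112 and 120 to 61.8, 18.1 and 74.7 per kb (−1.32, SE 0.44), on a mean of 10.6 interactions. LLPH seen from HMGA2 (−0.61, SE 0.28), CEP290 and TMTC3 seen from KITLG (−0.40, SE 0.24) and KRT6A seen from KRT80 (−0.33, SE 0.21) followed.

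ARHGAP26 had the largest increase without overlap, from 123, 84.1 and 76.2 per kb with dTAG to 167, 154 and 193 with dTAG+I-BET (0.88, SE 0.28), which overlap with the DMSO libraries. KRT14, a keratin of basal epidermal cells seen from KRT19, went from 581, 558 and 398 to 720, 971 and 821 per kb (0.72, SE 0.21). KRTAP9-3 (0.69, SE 0.26), the defensin gene DEFB1 seen from ANGPT2 (0.65, SE 0.41) and IFNA6 (0.64, SE 0.33) followed. The type I keratin windows were all higher than with dTAG (median 0.27), as were the tiles around them (0.25). The interferon windows had a median of −0.22, with 3 of 7 higher, beside 0.12 in the tiles around them. Relative to the mirror no window was called (limma; 0% of windows and tile pairs; 6 lower and 9 higher at an unadjusted p under 0.05, passed by 6.33% of all), with a median of 0.00.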

How the data were processed

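Capture-C was performed by the authors in HCT-116 MED14-dTAG cells with DpnII digestion and capture of 20 promoters, and analysed with CapCruncher (version 1; Bowtie2 2.3.5, Samtools 1.9) on hg38; the submitters' notes name bcl2fastq 2.17. Each deposited signal value counts the interactions between a DpnII fragment and a viewpoint after scaling by the authors, which gave every viewpoint and library a similar total. All 102057804 values were whole multiples of the smallest value in their column (100%, tolerance 0.01), so that interactions could be recovered. A viewpoint held 10698 to 60241 interactions in cis per library.

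TSSs were the 5′ ends of GENCODE 44 gene records on the same build: all 101038 listed fragments ended at a GATC of the reference. Fragments were assigned by midpoint. Windows of 5 kb were compared with mirrored windows, with flanks (5 to 15 kb from the TSS) and with 5-kb tiles 10 to 500 kb away that hold no promoter window.

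Log2 of signal per kb plus 1 was fitted with limma 3.58.1 in R 4.3.3 over all 9 libraries, windows and tiles together. A mean of at least 10 interactions was required, and p-values were adjusted by Benjamini-Hochberg. For mirrors and flanks that mean was taken over the window and its control. Folds are on this scale. edgeR 4.0.16 (quasi-likelihood) on the recovered interactions called 50 windows and tiles with dTAG, 112 with dTAG+I-BET against DMSO, and 0 between the treatments. Exact two-sided permutation tests of 3 against 3 libraries cannot go below p = 0.1. The fits were tested on simulated data. Named windows were the called ones, the 5 largest increases and decreases without overlap, the strongest neighbour of each viewpoint, the 5 highest and lowest ratios to mirrors, and members of fixed gene groups; windows compared with flanks, and others singled out, were named after their values were seen. Members and gene groups were chosen with earlier results of these data known. Alternatives were rescaling to equal totals, centring by distance, leaving out libraries, a replicate block, other windows, pseudocounts and filters, fits of 2 groups, canonical TSSs, TSSs over 25 kb away, and mirrors without promoters. Python 3.11.15 was used for other steps.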

Additional observations from a re-analysis of the deposited data

How the results depend on the processing

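The 3 calls with dTAG against DMSO became 1 in windows of 1.5 kb on each side and 1 with only the 2 groups compared, and ranged from 0 to 5 when 1 library was left out. The 1 call with dTAG+I-BET against DMSO became 3 after rescaling to equal totals, 2 after centring by distance, 3 in windows of 1.5 kb, 4 in windows of 5 kb on each side (1 lower), 5 with only the 2 groups compared and 2 with edgeR, and ranged from 1 to 10 without 1 library. No window was called between dTAG+I-BET and dTAG in any alternative that was run. Relative to mirrors, the 0 calls with dTAG became 6 in windows of 5 kb (5 higher), 1 with a pseudocount of 5, 2 with at least 30 interactions and 1 with canonical TSSs (0 to 1 without 1 library), and those with dTAG+I-BET against DMSO became 1 in windows of 5 kb and 1 with at least 30 interactions. The median change with dTAG was 0.056 after centring by distance (−0.037 to 0.061 without 1 library). With dTAG+I-BET against DMSO it was 0.026 to 0.11 without 1 library, and against dTAG it was 0.0016 after rescaling, −0.029 after centring and 0.0076 to 0.11 without 1 library. The median change relative to mirrors with dTAG+I-BET against DMSO was 0.080 in windows of 1.5 kb, 0.20 with mirrors that hold no promoter and 0.060 with flanks in place of mirrors (0.081 to 0.18 without 1 library). For dTAG it was −0.0071 to 0.11, and for dTAG+I-BET against dTAG −0.04 to 0.07. The 60 windows above their mirror in DMSO became 34 in windows of 1.5 kb and 30 with at least 30 interactions, where fewer windows were tested, 13 against flanks, and 56 to 61 without 1 library. The change of KRTAP4-6 with dTAG turned to −0.19 in windows of 5 kb, where it merges with KRTAP4-5. The cause of the other shifts was not tested. Leaving out windows over another captured promoter removed none, since KRR1 and PHLDA1 lie 520 kb apart. Correlations of same-numbered libraries were −0.04 to 0.15, and those of differently numbered libraries −0.12 to 0.08. The highest, 0.15, joined replicate 3 of DMSO with replicate 3 of dTAG. Whether the replicate numbers pair the libraries is therefore not settled, and the main fit used no pairing. With the replicate number as a block, 4 windows were called with dTAG and 2 with dTAG+I-BET against DMSO, where IFNA5 and IFNA1 were added (adjusted p = 0.0361 and 0.0399). A window held a median of 31.8 interactions per library, and the part of counting error in the spread was not tested.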
